A study of Mus musculus with 12 samples.

Results

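The genes described here are 38 transcripts of the unfolded protein response and the integrated stress response, read across cultured embryonic mouse lungs. They were taken by symbol from a list of named genes, and that list was chosen with earlier results of these data known. All 38 symbols were found among the 24421 in the count table, and all 38 were among the 15246 genes that passed the filter on low counts. Of these, 20 belong to the unfolded protein response (ER chaperones and their partners, ERAD and Xbp1) and 18 to the integrated stress response (transcription factors, feedback genes, amino acid supply and Stc2).

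The RNA came from whole fetal lungs of wild-type CD-1 mice, taken at embryonic day 12.5 and grown as explants in Matrigel at an air-liquid interface. Libraries of mRNA were sequenced in bulk from 3 groups of 4: Day 0, the day after isolation, Day 2 control and Day 2 compression. On Day 0 a 20% solution of PEG-HCC, a polyethylene glycol that can be hardened by a laser, went into the Matrigel of the lungs that were kept for 2 days. In the compression group it was crosslinked by a two-photon laser so as to enclose the lung, whereas in the control group the same amount was left uncrosslinked. Both Day 2 groups therefore carry the polymer. Whether Day 0 lungs had received it is not stated, so the comparisons with Day 0 cover 2 days of culture and may also cover the polymer, which cannot be told apart. The 3 groups share the wild-type genotype and the strain. Separate animals are not stated for the libraries of a group, so p-values measure the spread between these samples, which may in part be technical. Libraries are called below by group and replicate number, such as control 4 or compression 1.

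Proteins that enter the secretory pathway fold in the endoplasmic reticulum (ER). When unfolded proteins accumulate there, the sensors IRE1, ATF6 and PERK start the unfolded protein response: IRE1 splices Xbp1 mRNA, ATF6 is cut to release a transcription factor, and PERK phosphorylates the translation factor eIF2. The first pair of branches raises transcription of ER chaperones and of ER-associated degradation (ERAD), which exports misfolded proteins to the proteasome. Phosphorylated eIF2 is also the hub of the integrated stress response, which GCN2 starts when amino acids are short; general translation falls while ATF4 is made, and ATF4 with its partners turns on genes of amino acid supply, CHOP (Ddit3) and feedback genes. Secretory lung epithelium depends on this machinery to fold surfactant proteins.

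The DNA elements through which these pathways are known to act are shown first, since they are the sequences these genes are known for; 16 of the 35 genes searched held an exact match and 19 held none. The ER stress response element (ERSE), bound by NF-Y and ATF6, reads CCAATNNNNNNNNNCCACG. Its short form, ERSE-II, has ATTGG and CCACG with 1 base between them. ATF4 with a C/EBP partner binds TGATGNAA. Each was searched on both strands from 250 bases before to 50 bases after the RefSeq transcription start (GRCm38.p6). Of the 38 genes, 35 had an entry, and Hyou1, Manf and Slc7a5 had none. Printed 5′ to 3′ on the strand that carries the motif, with the match in capitals, the ERSE matches in chaperone genes were as follows.
Hspa5, chr2:34772020-34772048, plus strand: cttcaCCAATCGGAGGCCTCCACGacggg
Hsp90b1, chr10:86705528-86705556, plus strand: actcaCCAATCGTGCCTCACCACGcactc
Hsp90b1, chr10:86705633-86705661, minus strand: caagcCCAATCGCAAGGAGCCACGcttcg
Calr, chr8:84847070-84847098, plus strand: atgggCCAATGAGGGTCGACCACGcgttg
Canx, chr11:50325795-50325823, minus strand: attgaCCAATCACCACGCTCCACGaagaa
Pdia6, chr12:17266486-17266514, plus strand: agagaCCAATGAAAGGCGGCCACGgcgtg
Dnajc3, chr14:118937822-118937850, plus strand: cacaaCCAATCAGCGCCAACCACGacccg
Creld2, chr15:88819515-88819543, minus strand: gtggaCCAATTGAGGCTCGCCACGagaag

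The same element stood in 2 ERAD genes whose RNA is described below, one that did not pass the test in any comparison (Syvn1) and one with the widest spread of all 38 (Derl3).
Syvn1, chr19:6046527-6046555, plus strand: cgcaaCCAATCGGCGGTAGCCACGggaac
Derl3, chr10:75893237-75893265, minus strand: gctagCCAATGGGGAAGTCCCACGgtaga

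Exact ERSE matches were found in 9 of the 18 unfolded protein response genes with an entry, in 0 of 17 integrated stress response genes and in 37 of 27025 genes in the reference table (0.137%). The ATF4-C/EBP element stood in 5 of 17 integrated stress response genes (29.4%), in 1 of 18 unfolded protein response genes and in 4.51% of all genes. The 4 matches that lie before the start of an integrated stress response gene are given here because their genes went different ways in the RNA.
Nupr1, chr7:126625568-126625585, plus strand: ctgtcTGATGCAAtctgg
Asns, chr6:7693220-7693237, minus strand: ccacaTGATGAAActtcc
Chac1, chr2:119351044-119351061, minus strand: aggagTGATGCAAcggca
Pck2, chr14:55540158-55540175, minus strand: gatacTGATGTAActttg

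Herpud1 was the only one of the 35 genes with matches to elements of both pathways. The 250 bases before its start, on the plus strand, hold the ATF4-C/EBP element read on the opposite strand (first run of capitals) and ERSE-II (second run).
Herpud1, chr8:94386179-94386428, plus strand: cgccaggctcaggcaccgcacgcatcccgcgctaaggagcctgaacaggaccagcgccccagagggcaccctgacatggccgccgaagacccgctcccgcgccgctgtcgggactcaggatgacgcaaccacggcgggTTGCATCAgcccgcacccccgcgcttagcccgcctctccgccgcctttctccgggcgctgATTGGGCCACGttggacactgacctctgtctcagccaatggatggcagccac

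ERSE-II was also found in Dnajb11, and in 0.0444% of all genes. TGACGTG, an element bound by XBP1 and ATF6, was found in Hspa5 alone among the 35 genes and in 2.22% of all genes. No bases were shared between matches to different motifs in these genes. A match describes the letters of the window, and its absence says only that the exact letters are not in it.

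**Figure D1:**
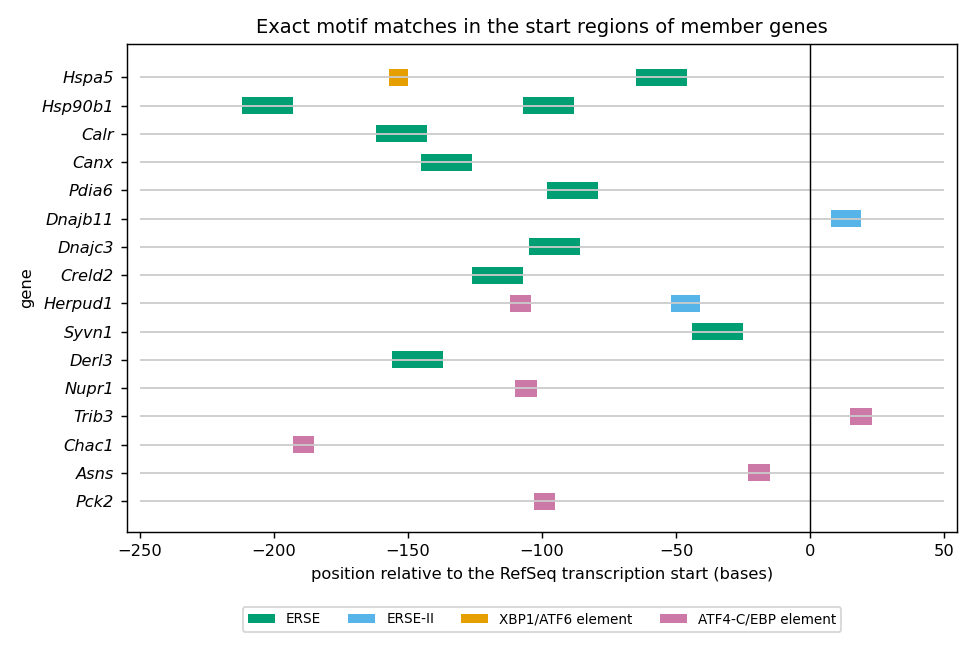
Position of each exact match (coloured blocks) relative to the RefSeq transcription start at 0, in bases, for the 16 genes with at least 1 match. ERSE matches (green) stand only in unfolded protein response genes, and 5 of the 6 ATF4-C/EBP matches (pink) in integrated stress response genes.

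Library totals ran from 13979871 to 33249761 counts. All 10 lung epithelium markers and all 8 lung mesenchyme markers had counts in every library. A few libraries stood apart. In control 4, 14 hepatocyte markers summed to 2059 CPM (counts scaled to library size with TMM factors), against 63.6 to 75.2 in the other controls and 60.2 to 106.4 under compression, and none of the 14 was at 0; Alb was at 638 CPM there and at 0.193 to 0.408 in the other controls. In compression 1, 10 interferon response genes summed to 161.2 CPM, against 44.5 to 56.5 in the other compression libraries and 37.74 to 66.98 in controls. Compression 2 and 3, whose descriptions share a number, were the closest pair of any group (common dispersion 0.000879, against 0.00558 to 0.0429 in the other pairs within groups). Summed levels of 12 markers of macrophages and leukocytes were 206 to 237 CPM at Day 0, 265 to 308 in controls 1 to 3, 499 in control 4 and 425 to 535 under compression. Summed levels of 7 endothelial markers were 279 to 473 CPM at Day 0 and 47.0 to 96.3 at Day 2. The labels do not say whether compression 2 and 3 came from separate lungs; if they did not, the compression group holds 3 independent samples and not 4. The part of these differences in the results below was not tested. The main counts are given with and without these libraries, and so are single values for some of the genes. Where no such value is given, a gene may still depend on these libraries.

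At Day 0 the disulfide isomerases and the ER chaperones other than Hyou1 were the most abundant of the 38 transcripts per length. On the scale of reads per kilobase of exon, scaled to library size (RPKM), Calr, a lectin chaperone of glycoproteins, was at 251 ± 26.4 (SD, n = 4) and Hsp90b1 (GRP94, the ER member of the Hsp90 family) at 248.6 ± 16.0, which did not differ beyond their spread. Next came the disulfide isomerase Pdia3 at 195.9 ± 16.6 and Hspa5 (BiP, the central ER Hsp70 chaperone) at 187 ± 14.6, again within each other's spread, and then Canx at 124 ± 10.2. The highest transcript of the integrated stress response was Atf4 at 68.1 ± 2.90 RPKM, eighth of the 38. Hyou1 was at 34.2 ± 0.890 RPKM, at rank 10 of the 38. The lowest were Stc2 (2.30 ± 0.487), Nupr1 (1.08 ± 0.162) and Derl3 (0.475 ± 0.165).

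Between Day 0 and Day 2 of free culture, stress response transcripts rose broadly. Of the 38 genes, 25 were higher in Day 2 controls than at Day 0 and 1 was lower (edgeR quasi-likelihood test, Benjamini-Hochberg adjusted p under 0.05 over all genes tested), where 22.6% of all genes tested were called higher and 17.6% lower. The median log2 fold change of the 38 was 0.53, against 0.02 over all genes. The rise took in 16 of 20 unfolded protein response genes and 9 of 18 integrated stress response genes. In 21 of the 38 all 4 controls lay above all 4 Day 0 libraries, a separation seen in 20.4% of all genes. Without control 4, 20 genes were higher and 1 lower (19.6% and 17.1% of all genes); the 5 calls lost were Ddit3, Derl3, Dnajb9, Slc7a1 and Trib3. In bulk RNA, fewer cells of a type and less RNA per cell cannot be told apart.

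All 5 ER chaperones had higher mean levels in controls, and 4 of them passed the test, where 22.6% of all genes tested were called higher. Hspa5 (GRCm38 chr2:34771970-34777547, plus strand) was at 813, 704, 848 and 804 CPM in Day 0 replicates 1 to 4 and at 982, 921, 1223 and 1755 in controls 1 to 4. Every control lay above every Day 0 library, and controls 3 and 4 stood above controls 1 and 2 (log2 fold change 0.62, SE 0.16, adjusted p = 0.00763). Without control 4 its log2 fold change was 0.38, SE 0.10, adjusted p = 0.0107. Hsp90b1 (chr10:86690209-86705509, minus strand) went from 1065, 914, 1029 and 1002 CPM to 1519, 1378, 1615 and 2070 (log2 fold change 0.71, SE 0.12, adjusted p = 0.000276). Its exons share 10.3% of their length with 1810014B01Rik on the opposite strand and 5.38% with models on its own strand, and without a stated strand setting such reads cannot be told apart. The lectin chaperones Calr and Canx, which hold newly made glycoproteins until they fold, rose by log2 fold changes of 0.58 (SE 0.09) and 0.48 (SE 0.07). Canx had the tightest control group of the 38, from 784 to 835.5 CPM. Hyou1, a large Hsp70-like protein that helps BiP exchange nucleotide, behaved otherwise: it was at 243, 256, 247 and 242 CPM at Day 0 and 243, 245, 390 and 513 in controls. Controls 1 and 2 sat within the Day 0 range while controls 3 and 4 were above it, and the difference missed the threshold (log2 fold change 0.49, SE 0.19, adjusted p = 0.0561).

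The enzymes and partners that work beside BiP rose as a group. All 3 disulfide isomerases, which make and rearrange disulfide bonds, were higher in controls, by 0.53 for Pdia3, 0.60 for Pdia4 and 0.56 for Pdia6 on the log2 scale (SE 0.09, 0.13 and 0.10). All 6 BiP partners and secreted ER proteins were higher as well, where 22.6% of all genes tested were called higher. Among the J-domain co-chaperones, the log2 fold change was 0.44 (SE 0.13, adjusted p = 0.0179) for Dnajb9, 0.50 (SE 0.10) for Dnajb11 and 0.56 (SE 0.10) for Dnajc3. The call of Dnajb9 was lost without control 4 (0.28, SE 0.11, adjusted p = 0.065) and without Day 0 replicate 2 or 3 (highest adjusted p over all alternatives 0.0701). Sdf2l1, which works with Dnajb11, was at 15.3, 12.8, 18.3 and 15.99 CPM at Day 0 and at 22.1, 22.3, 34.8 and 55.9 in controls. The groups did not overlap, and control 4 was at 2.12 times the mean of the other controls (log2 fold change 1.09, SE 0.25, adjusted p = 0.00432). Creld2, a secreted ER protein, went from 31.4, 29.96, 36.5 and 32.8 CPM to 38.3, 40.5, 63.8 and 100.1. Control 4 was again 2.11 times the mean of the others, and controls 1 and 2 lay just above the Day 0 range (log2 fold change 0.88, SE 0.24, adjusted p = 0.0115). Without control 4 its log2 fold change was 0.52, SE 0.15, adjusted p = 0.0137. Manf, a small secreted partner of BiP, rose by 0.71 (SE 0.17, adjusted p = 0.00485), and by 0.46, SE 0.10, adjusted p = 0.00392 without control 4. Xbp1, the transcription factor that IRE1 activates by splicing, rose in total RNA level from 76.7, 77.7, 95.2 and 95.6 CPM to 101, 99.8, 124 and 150.2 (log2 fold change 0.46, SE 0.13, adjusted p = 0.0109); gene counts do not separate its spliced and unspliced forms.

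ERAD genes were divided. Sel1l, the scaffold of the ERAD ubiquitin ligase, rose from 206, 204, 214 and 221 CPM to 284, 255, 314 and 369 (log2 fold change 0.53, SE 0.09, adjusted p = 0.00038). Its partner Syvn1, the ligase HRD1, was at 56.2 ± 3.68 CPM at Day 0 and 57.96 ± 12.5 in controls (mean ± SD, n = 4; log2 fold change 0.04, SE 0.13, adjusted p = 0.823). Derl3, a derlin of the ERAD channel, was at 0.898, 1.42, 0.779 and 0.689 CPM at Day 0 and at 0.901, 0.583, 7.51 and 15.4 in controls. Only controls 3 and 4 were above Day 0, and the call (log2 fold change 2.70, SE 0.86, adjusted p = 0.0249) was lost without control 3, control 4 or Day 0 replicate 1, 3 or 4, the adjusted p over all alternatives running from 0.00447 to 0.219. Without control 4 its log2 fold change was 1.69, SE 0.72, adjusted p = 0.0864. Herpud1, a membrane protein that gathers ERAD components, showed the same division with 45.2, 48.3, 43.7 and 49.4 CPM at Day 0 and 41.3, 44.1, 77.2 and 114 in controls, and did not pass the test (log2 fold change 0.56, SE 0.26, adjusted p = 0.107). Edem1, a lectin that sends trimmed glycoproteins to ERAD, ranged from 27.3 CPM in control 1 to 126 in control 4 and did not pass either (log2 fold change 0.18, SE 0.37, adjusted p = 0.735).

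All 5 transcription factors of the integrated stress response passed the test as higher in controls, where 22.6% of all genes tested did. Nupr1, a small stress-induced chromatin regulator (chr7:126623249-126630861, minus strand), had the largest change of the 38. It was at 2.57, 3.20, 2.25 and 2.85 CPM at Day 0 and 13.5, 12.8, 19.4 and 43.3 in controls (log2 fold change 3.02, SE 0.39, adjusted p = 7.34e-05), so that even the lowest control stood far above Day 0. Cebpb, a bZIP partner of ATF4, went from 14.1, 22.9, 20.7 and 23.4 CPM to 30.8, 38.1, 46.97 and 54.1 (log2 fold change 1.06, SE 0.23, adjusted p = 0.00273); 20.7% of its exon length is shared with Tmem189 on the opposite strand. Atf4 (chr15:80255184-80257541, plus strand), which is controlled chiefly at translation, rose slightly, from 163, 163, 150.4 and 165 CPM to 176, 194, 205 and 242 (log2 fold change 0.34, SE 0.09, adjusted p = 0.00606). Its relative Atf5 rose by 0.76 (SE 0.16, adjusted p = 0.0027). Ddit3, which encodes the death-promoting factor CHOP, was at 12.8, 14.6, 9.22 and 9.04 CPM at Day 0 and at 13.3, 12.8, 23.6 and 33.1 in controls. Controls 1 and 2 overlapped Day 0, controls 3 and 4 did not, and the call (log2 fold change 0.86, SE 0.27, adjusted p = 0.023) was lost without control 3, control 4, Day 0 replicate 3 or Day 0 replicate 4 (highest adjusted p 0.0781). With control 4 left out, the value was 0.54, SE 0.22, adjusted p = 0.0708.

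The feedback genes were spread widely among controls. Trib3, a pseudokinase that restrains ATF4 and CHOP, was at 5.43, 6.41, 5.78 and 6.89 CPM at Day 0 and 6.21, 7.34, 22.5 and 41.9 in controls. Controls 1 and 2 sat within or just above the Day 0 range, control 4 at 3.48 times the mean of the other controls, and the call (log2 fold change 1.64, SE 0.52, adjusted p = 0.0267) was lost in 6 of the 12 fits that left out 1 library: any of the 4 Day 0 libraries, control 3 or control 4. With control 4 left out, the value was 0.96, SE 0.38, adjusted p = 0.0707. Chac1, which degrades glutathione, was at 2.01, 2.49, 5.23 and 7.79 CPM at Day 0 and 2.86, 3.40, 8.60 and 14.9 in controls, and did not pass the test (log2 fold change 0.70, SE 0.57, adjusted p = 0.353). Ppp1r15a (GADD34), which brings the phosphatase back to eIF2, was at 23.96, 23.5, 26.3 and 22.3 CPM at Day 0 but at 15.4, 17.8, 27.7 and 46.9 in controls. Controls 1 and 2 were below every Day 0 library and controls 3 and 4 above them, with a group difference near 0 (log2 fold change 0.15, SE 0.28, adjusted p = 0.703).

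Of the 9 genes of amino acid supply, 2 rose and 1 fell, where 22.6% of all genes tested were higher and 17.6% lower. These counts are near those of all genes. Psat1, an enzyme of serine synthesis, rose in all 4 controls, from 152, 128, 134 and 140.4 CPM to 167, 199, 203 and 229.5 (log2 fold change 0.53, SE 0.09, adjusted p = 0.000279). The other enzyme of that pathway here, Phgdh, did not pass the test (0.06, SE 0.14), nor did Asns, the asparagine synthetase (57.03, 51.96, 40.5 and 57.5 CPM at Day 0, 45.1, 53.4, 59.9 and 87.2 in controls; log2 fold change 0.24, SE 0.18, adjusted p = 0.316). Of the mitochondrial enzymes, Shmt2 and Mthfd2 of the folate cycle did not pass, with log2 fold changes of -0.02 and 0.04 (SE 0.11 and 0.14). Pck2, the mitochondrial PEP carboxykinase, was the one gene of the 38 that fell. It was at 72.1, 75.2, 84.9 and 88.2 CPM at Day 0 and 49.8, 55.99, 69.8 and 74.8 in controls (log2 fold change -0.36, SE 0.11, adjusted p = 0.0227), and the call was lost without control 1, control 2, Day 0 replicate 3 or Day 0 replicate 4 (highest adjusted p 0.0629). Slc7a1, a transporter of cationic amino acids, rose from 65.7, 63.6, 56.4 and 69.3 CPM to 70.2, 70.2, 82.6 and 105 (log2 fold change 0.36, SE 0.11, adjusted p = 0.0205). This call was lost without control 3, control 4 or Day 0 replicate 3 (highest adjusted p 0.0839), and with control 4 left out the value was 0.20, SE 0.08, adjusted p = 0.0742. Slc7a5 and its heavy chain Slc3a2, which together exchange large neutral amino acids, had log2 fold changes of 0.19 (SE 0.20) and 0.30 (SE 0.19) and did not pass. Stc2, a secreted glycoprotein hormone, rose from 15.3, 10.04, 9.90 and 12.4 CPM to 17.6, 18.6, 21.6 and 29.8 (log2 fold change 0.86, SE 0.19, adjusted p = 0.00266).

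**Figure D2:**
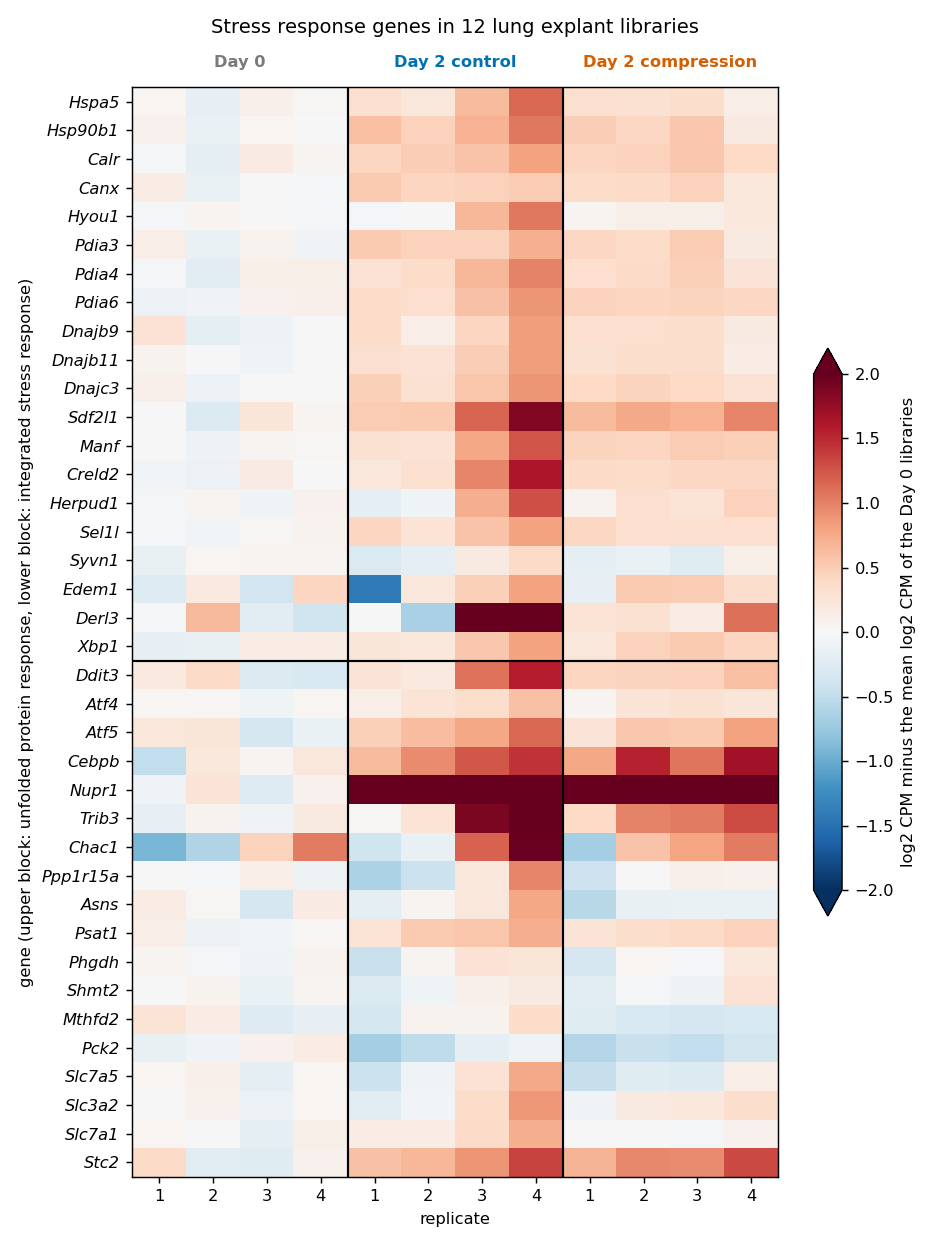
Level of each of the 38 genes (rows) in each of the 12 libraries (columns, 4 per group), as log2 CPM minus the mean of the Day 0 libraries; colours saturate at 2 in either direction. Controls 3 and 4 are red in most rows, controls 1 and 2 and the compression libraries paler, and Nupr1 is dark in all 8 Day 2 libraries.

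Under compression the rise from Day 0 was also present, and for most genes the fitted value was smaller than in controls. This comparison uses the same 4 Day 0 libraries as the last, so the values are set side by side and their likeness is no result. Relative to Day 0, 17 of the 38 genes were higher and 1 lower in compressed lungs, where 26.6% of all genes tested were called higher and 22.5% lower. The 17 were 12 of the 20 unfolded protein response genes and 5 of the 18 integrated stress response genes. The median log2 fold change was 0.35, against 0.02 over all genes. All 4 compression libraries lay above all 4 Day 0 libraries in 23 of the 38 genes (23.5% of all genes) and below them in 1, Pck2 (19.5% of all genes). Without control 4 the counts were 22 higher and 2 lower (26.2% and 23.4% of all genes). Without compression 1 they were 15 higher and 1 lower (24.9% and 24.5% of all genes). With compression 2 and 3 summed to 1 library they were 13 higher and 1 lower (22.4% and 20.9%), and the calls lost were Dnajb11, Manf, Pdia4 and Xbp1.

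In compressed lungs Hspa5 was at 992, 973, 1012 and 866 CPM in replicates 1 to 4, all above Day 0, but the difference did not pass the test (log2 fold change 0.28, SE 0.16, adjusted p = 0.169). In the fit without control 4 the log2 fold change was 0.27, SE 0.09, adjusted p = 0.031. Hsp90b1 rose to 1404, 1337, 1452 and 1130 CPM (log2 fold change 0.41, SE 0.12, adjusted p = 0.0096) and Calr to 971, 991, 1049 and 953 CPM (log2 fold change 0.45, SE 0.09, adjusted p = 0.0011). Canx, the 3 disulfide isomerases, Dnajb11, Dnajc3, Manf, Sel1l and Xbp1 also rose, with log2 fold changes from 0.29 (Dnajb11) to 0.46 (Manf). Sdf2l1 was at 24, 26.2, 25.1 and 30.4 CPM and had the largest rise of the unfolded protein response genes (log2 fold change 0.75, SE 0.25, adjusted p = 0.0254). The calls of Dnajb11, Manf, Pdia4, Sdf2l1, Xbp1 and Atf5 were each lost in 1 or more of the fits that left out 1 library, with adjusted p of at most 0.117.

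Several genes that had passed in controls did not pass under compression. Creld2 lay between 42.1 and 43.4 CPM in all 4 compression libraries, above Day 0 and within the control range of 38.3 to 100.1 (log2 fold change 0.39, SE 0.24, adjusted p = 0.201). Derl3 was at 1.10, 1.12, 1.01 and 1.94 CPM (log2 fold change 0.50, SE 0.88, adjusted p = 0.662), Ddit3 at 15.02, 15.2, 15.4 and 17 (log2 fold change 0.47, SE 0.27, adjusted p = 0.168) and Trib3 at 8.02, 12.1, 12.5 and 15.2 (log2 fold change 0.97, SE 0.52, adjusted p = 0.146). Dnajb9, at 27.4, 27.3, 27.6 and 24.4 CPM, did not pass either (log2 fold change 0.29, SE 0.13, adjusted p = 0.0929). All 4 values of Ddit3 and of Trib3 were above every Day 0 library, whereas those of Derl3 overlapped Day 0. Of the genes that had passed in neither, Hyou1 stood at 257, 268, 269 and 286 CPM (log2 fold change 0.13, SE 0.19, adjusted p = 0.603) and Herpud1 at 49.2, 58.7, 56.3 and 64.3 CPM (log2 fold change 0.29, SE 0.26, adjusted p = 0.371). That a gene passed in one Day 2 group and not in the other does not show that the groups differ; the direct comparison is given below.

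Among integrated stress response genes, Nupr1 was at 15.8, 25.98, 26.5 and 21.99 CPM under compression (log2 fold change 3.06, SE 0.39, adjusted p = 4.48e-05), Cebpb at 34, 57.98, 41.9 and 63.5 (log2 fold change 1.29, SE 0.23, adjusted p = 0.000563) and Stc2 at 18.9, 22.8, 22.6 and 29.4 (log2 fold change 0.97, SE 0.19, adjusted p = 0.000861). In all 3 genes the compression libraries stood clear of Day 0, and compression 1 was the lowest of the 4. Atf5 (0.52, SE 0.16) and Psat1 (0.36, SE 0.09) rose too, and Atf4 missed the threshold (log2 fold change 0.22, SE 0.09, adjusted p = 0.0522). Pck2 fell to 53.2, 58.6, 56.6 and 61.7 CPM, below every Day 0 library (log2 fold change -0.48, SE 0.11, adjusted p = 0.00354), and passed in each of the 21 alternatives. Mthfd2 was at 36.2, 34.8, 33.99 and 34.97 CPM and missed the threshold (log2 fold change -0.31, SE 0.14, adjusted p = 0.0765). The remaining enzymes, the transporters, Chac1 and Ppp1r15a did not pass, with log2 fold changes from -0.25 (Asns) to 0.32 (Chac1).

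**Figure D3:**
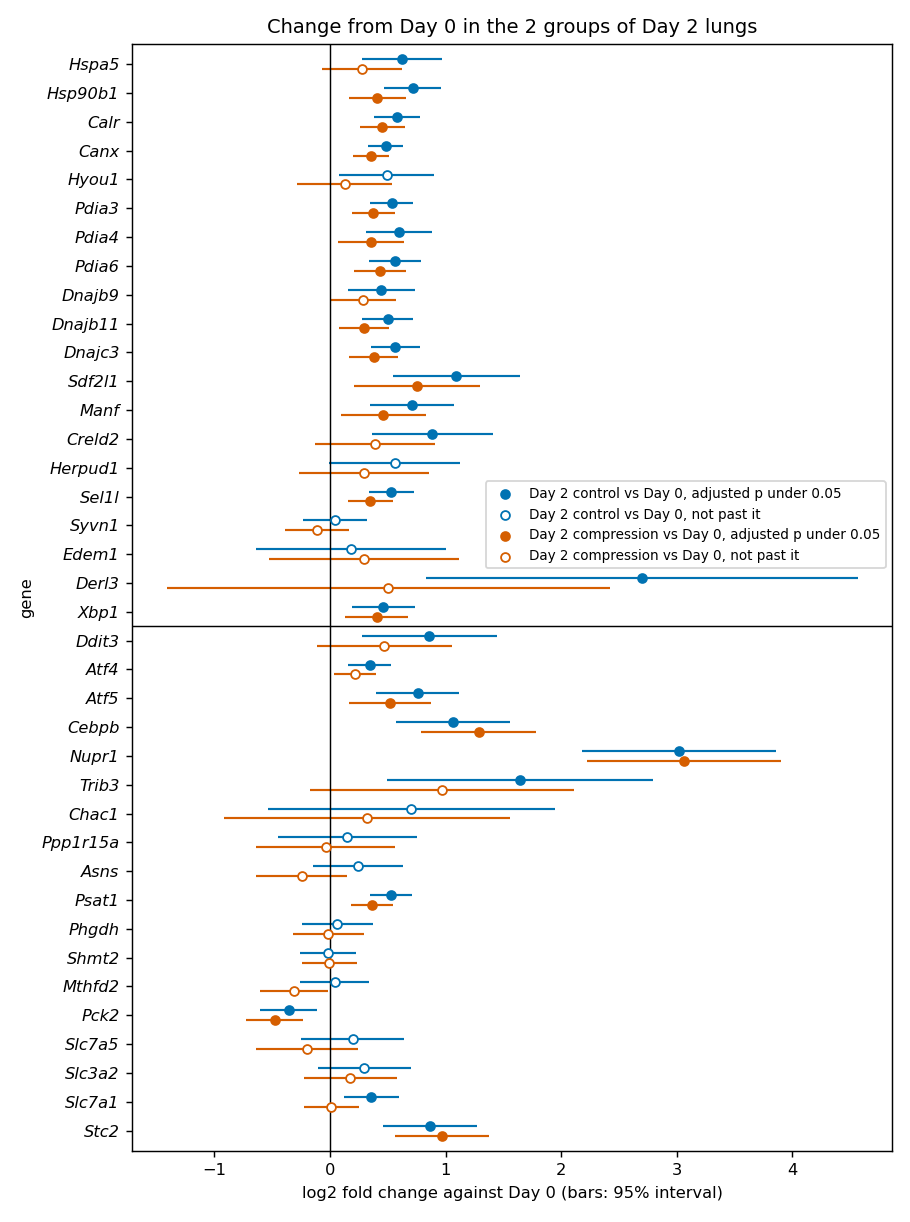
Log2 fold change against Day 0 of each gene in Day 2 controls (blue) and Day 2 compression (orange) with 95% intervals from the edgeR fit; filled points passed an adjusted p of 0.05. Nupr1 stands near 3 in both groups, and Pck2 is the only filled point left of 0.

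Compressed and control lungs were then compared directly, to ask whether restraint of growth moved these genes beyond culture itself. None of the 38 genes passed the test in edgeR, where 0 of the 15246 genes tested (0%) were called in either direction. DESeq2 called 0 of the 38, where it called 0.335% of all genes higher and 0.118% lower. With sample quality weights, limma-voom called 3 lower (Mthfd2, Psat1 and Slc7a1), where it called 5.17% of all genes lower and 7.38% higher. Fitted values leaned downward: 33 of 38 log2 fold changes were negative, where 49% of all genes were, with a median of -0.19 against 0.00 over all genes. This lean moved with single libraries. Without control 4, 25 of 38 were negative and the median was -0.03, and without control 4 and compression 1 together 20 of 38 were negative with a median of -0.01. Without control 1 it was 36 of 38, with a median of -0.26.

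At an unadjusted p under 0.05, 5 of the 38 genes were lower under compression and 0 higher, where 5.33% of all genes were lower and 6.73% higher. They were Slc7a1, Asns, Hsp90b1, Mthfd2 and Derl3. Slc7a1 was the one gene of the 38 whose groups did not overlap, with 64.2, 64.1, 61.7 and 67.2 CPM under compression below the 70.2, 70.2, 82.6 and 105 of controls (log2 fold change -0.35, SE 0.11, adjusted p = 0.347); 2.7% of all genes were separated in this direction and 3.07% in the other. The compression libraries sat inside the Day 0 range of 56.4 to 69.3. Without control 4 the difference was -0.20, SE 0.08, adjusted p = 0.3. For Asns, compression gave 34.99, 46.3, 46.6 and 46.6 CPM against 45.1, 53.4, 59.9 and 87.2 in controls (log2 fold change -0.49, SE 0.18, adjusted p = 0.376), and compression 1 and control 4 were the extremes of the 8. Without both libraries the difference was -0.17, SE 0.13, adjusted p = 0.44. Mthfd2 was at 33.99 to 36.2 CPM in all 4 compression libraries and at 33.6, 45.4, 45 and 55.3 in controls, 3 of which were higher (log2 fold change -0.35, SE 0.14, adjusted p = 0.38). Hsp90b1 differed by -0.31 (SE 0.11, adjusted p = 0.376). Derl3 had the largest fitted difference (log2 fold change -2.20, SE 0.81, adjusted p = 0.376), with control 3 and control 4 at 7.51 and 15.4 CPM against at most 1.94 CPM in the other 6 Day 2 libraries.

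The intervals give the range of each difference. For Hspa5 the log2 difference between compression and control was -0.34, with a 95% interval of -0.69 to 0.00; for Hsp90b1 it was -0.31 (-0.55 to -0.06), for Hyou1 -0.36 (-0.77 to 0.05), for Calr -0.13 (-0.32 to 0.07) and for Canx -0.12 (-0.28 to 0.03). These intervals are not adjusted for the number of genes, and that of Hsp90b1 leaves out 0. Over the 21 alternatives the difference ran from -0.38 to -0.17 for Hsp90b1, -0.46 to -0.11 for Hspa5 and -0.50 to -0.08 for Hyou1. For Calr it ran from -0.17 to -0.02 and for Canx from -0.16 to -0.08. For the transcription factor Xbp1 the log2 difference with all libraries was -0.06 (-0.33 to 0.21). Intervals were wide for the genes that spread among controls: -1.77 to 0.41 for Trib3, -1.61 to 0.83 for Chac1 and -0.96 to 0.18 for Ddit3. A missed threshold in these genes does not show equal levels.

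Genes with positive differences were 5: Cebpb, Edem1, Stc2, Nupr1 and Shmt2, of which none passed. The value of Nupr1 moved with the libraries left out. With all 12 it differed by 0.04 (SE 0.33); without control 4, at 43.3 CPM the highest of the 8 Day 2 libraries, the difference was 0.57, SE 0.19, adjusted p = 0.238; without control 4 and compression 1 together it passed as higher under compression (0.71, SE 0.16, adjusted p = 0.0356), where 1.8% of all genes were called higher and 1.12% lower. Stc2 and Cebpb had larger positive values without both libraries (0.38, SE 0.16, adjusted p = 0.187 and 0.51, SE 0.21, adjusted p = 0.184) and did not pass. Without control 4 alone, 0 of the 38 genes passed, where 0.338% of all genes were higher and 0.0065% lower.

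**Figure D4:**
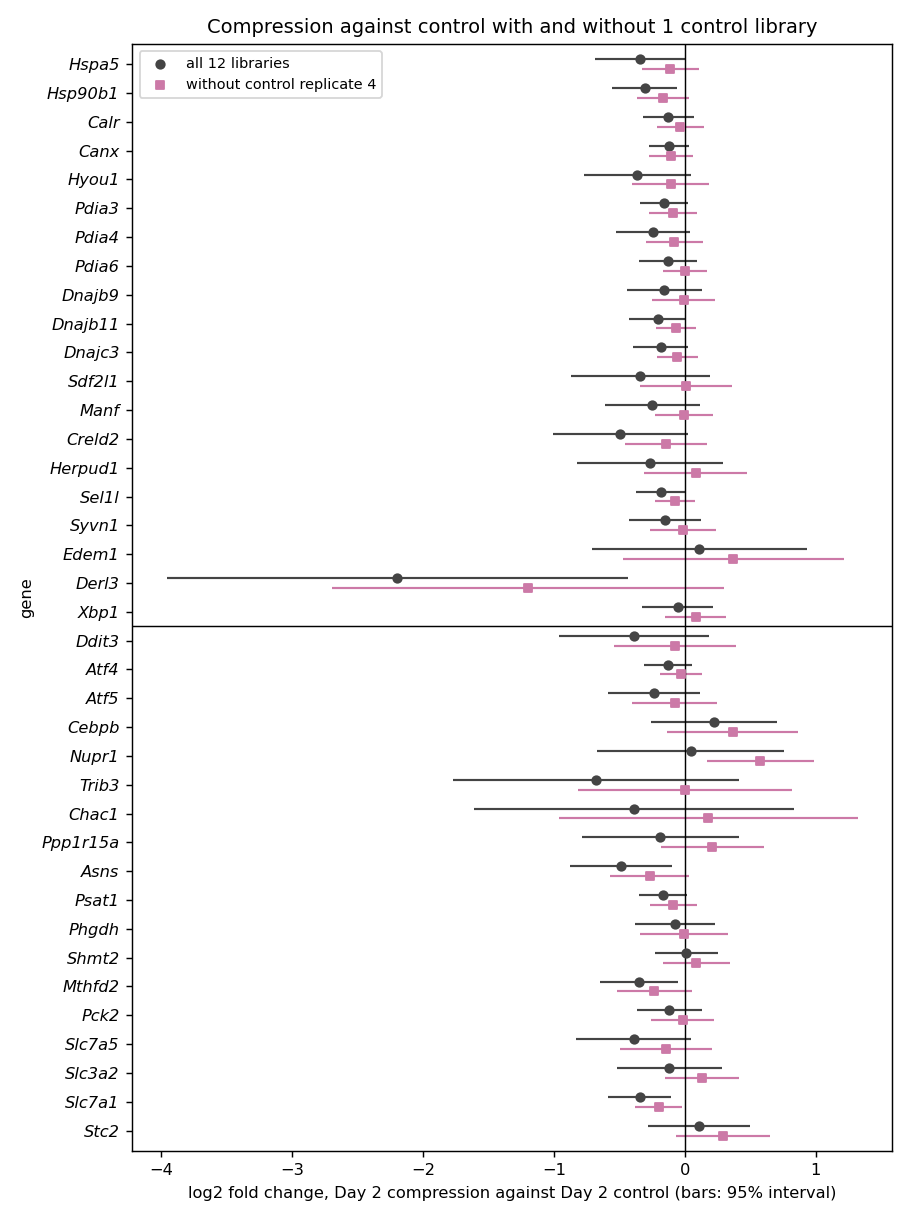
Log2 fold change of Day 2 compression against Day 2 control for each gene with all 12 libraries (circles) and without control 4 (squares), with 95% intervals. Most squares lie nearer to 0 than their circles; Nupr1 moves from 0.04 to 0.57 and Derl3 from -2.20 to -1.20.

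The controls differed among themselves in one order across both pathways. Control 4 was the highest control in 36 of the 38 genes, against 27.4% of all genes tested, and the order of control 4, then control 3, then controls 1 and 2 held in 34, against 16.1% of all genes. The exceptions to the first count were Canx and Phgdh. The median ratio of the highest to the lowest control was 1.65 for the 38 genes and 1.23 for all genes, whereas at Day 0 these were 1.22 and 1.27 and under compression 1.24 and 1.25. The widest was Derl3 with a ratio of 26.5. Compression libraries often fell between the controls: control 3 lay above all 4 of them in 31 of 38 genes (18.1% of all genes), controls 1 and 2 lay below all 4 in 12 (14% of all genes), and both held in 10 (0.538% of all genes). Controls 3 and 4 against 1 and 2 is an order seen in the data and not a grouping given by the labels.

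The mean log2 CPM of each set relative to Day 0 shows this per library, as a description with no test. For the 20 unfolded protein response genes it was 0.20, 0.23, 0.73 and 1.12 in controls 1 to 4 and 0.30, 0.37, 0.38 and 0.36 in compression 1 to 4. For the 18 integrated stress response genes it was 0.07, 0.26, 0.69 and 1.13 in controls and 0.10, 0.44, 0.42 and 0.60 under compression. Controls thus spanned both sides of the compression libraries in each set. The hepatocyte markers of control 3 summed to 63.6 CPM, the lowest of the controls. Its 2 set levels were the second highest of the 8 Day 2 libraries. In control 4 the markers and the set levels were high together. The part of the liver transcripts in the set levels of either library was not tested.

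**Figure D5:**
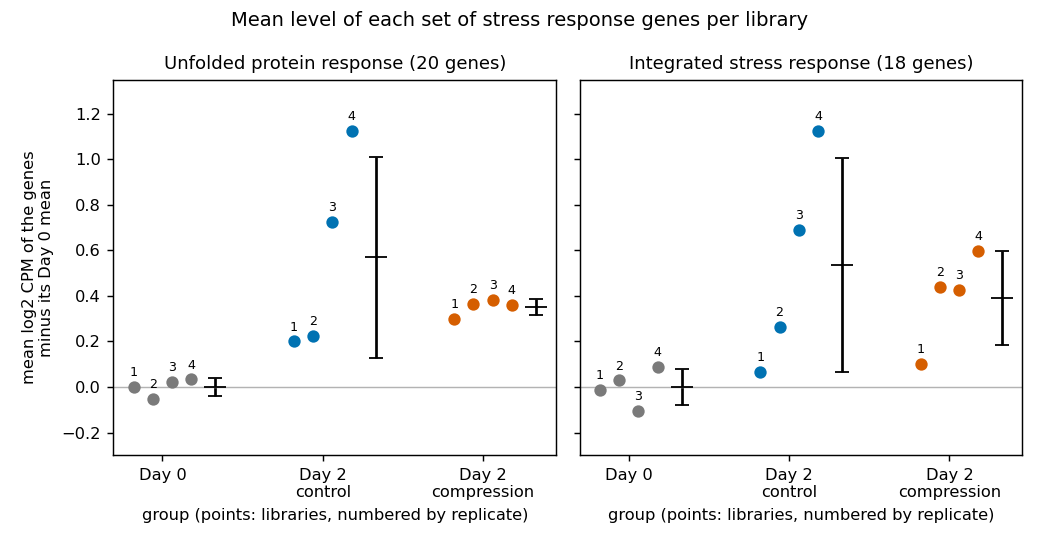
Mean log2 CPM of the 20 unfolded protein response genes (left) and the 18 integrated stress response genes (right) minus the Day 0 mean, 1 point per library numbered by replicate, with the group mean and SD in black. Controls 3 and 4 lie above all compression libraries and controls 1 and 2 below or among them. Compression 1 is the lowest compression library in both panels, with the wider gap on the right.

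Compression 1 differed between the pathways. It was the lowest compression library in 16 of 18 integrated stress response genes (88.9%) but in 5 of 20 unfolded protein response genes (25%), where it was lowest in 32.8% of all genes. Examples are Trib3, at 8.02 CPM against 12.1 to 15.15 in the other compression libraries, Chac1, at 2.36 against 5.59 to 7.77, and Nupr1, at 15.8 against 21.99 to 26.52. For Hspa5, Hsp90b1, Pdia3 and Canx it lay within the others. This library also had the highest interferon response sum given above, whose part in the difference was not tested.

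Among 22 genes of stress sensing and eIF2 control, 4 were higher and 3 lower in controls than at Day 0 (22.6% and 17.6% of all genes), and 5 were higher and 5 lower under compression (26.6% and 22.5%). These counts are near those of all genes. Eif2ak3, which encodes PERK, rose from 39.5, 35.7, 34.9 and 33.1 CPM at Day 0 to 45.9, 44.9, 48.7 and 55.2 in controls and 43.96, 51.5, 52.5 and 50.1 under compression (0.44, SE 0.08, and 0.47, SE 0.08). Both Day 2 groups stood clear of Day 0. Atf6 rose by 0.58 (SE 0.10) and 0.44 (SE 0.10), and so did Creb3l2, a related ER-anchored factor, by 0.49 (SE 0.07) and 0.42 (SE 0.07). Ern1, which encodes IRE1, and Eif2ak4, which encodes GCN2, did not pass in either comparison; Ern1 was at 17.96 ± 1.39 CPM at Day 0, 18.4 ± 1.98 in controls and 16.4 ± 1.19 under compression (mean ± SD, n = 4). The GCN2 activator Gcn1l1 fell in both, with log2 fold changes of -0.35 (SE 0.08) in controls and -0.40 (SE 0.08) under compression.

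Genes outside the 38 were counted by function. Of 33 other genes of ER folding and translocation, 20 were higher and 0 lower in controls than at Day 0, where 22.6% and 17.6% of all genes were, and 22 and 0 under compression, where 26.6% and 22.5% were. Among those with the smallest p were Spcs2, of signal peptidase (0.48 and 0.40, SE 0.05 and 0.05), Fkbp2, a prolyl isomerase (0.62 and 0.61, SE 0.07 and 0.07), and Sil1, a nucleotide exchange factor of BiP (0.92 and 0.93, SE 0.16 and 0.16). Without control 4 the control count was 15 (19.6% of all genes). Of 19 ERAD genes outside the list, 6 were higher and 2 lower in controls and 7 and 2 under compression, nearer to the same shares of all genes. Os9 and Edem2, lectins of ERAD, rose in both groups (Os9 0.41 and 0.40, SE 0.05 and 0.05; Edem2 0.51 and 0.54, SE 0.08 and 0.08). Nploc4, of the extraction machinery, and Vcp, its ATPase partner, fell in both (Nploc4 -0.33 and -0.33, SE 0.06 and 0.06; Vcp -0.26 and -0.34, SE 0.06 and 0.06).

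Further targets of ATF4 were counted against the same shares, 22.6% higher and 17.6% lower in controls and 26.6% and 22.5% under compression. Of 15 tested ATF4 and CHOP targets outside amino acid metabolism, 8 were higher and 0 lower in controls, and 9 and 0 under compression. Among them were Nfe2l2, which encodes the antioxidant factor NRF2 (0.74 and 0.81, SE 0.07 and 0.07), the lipoprotein receptor Vldlr (1.04 and 1.01, SE 0.13 and 0.13) and the death receptor Tnfrsf10b (0.63 and 0.54, SE 0.08 and 0.08). Of the aminoacyl tRNA synthetases, which are ATF4 targets in many cells, 9 of 20 were lower and 1 higher in controls, and 12 were lower and 1 higher under compression; the difference between these lists was not tested. Iars fell in both, with log2 fold changes of -0.36 in controls and -0.63 under compression (SE 0.07 and 0.07), and so did Rars, with -0.24 and -0.32 (SE 0.06 and 0.06). Other genes of amino acid and one-carbon metabolism had 4 of 18 higher and 4 lower in controls, near the share of all genes, and 3 higher and 8 lower under compression. Slc1a5, a glutamine transporter, rose in both (0.89 and 0.77, SE 0.15 and 0.15), and Slc38a2 fell in both (-0.36 and -0.37, SE 0.07 and 0.07).

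Cytosolic and mitochondrial chaperones were counted in the same way. Of 15 cytosolic heat shock genes, 3 were higher and 4 lower in controls, and 4 and 4 under compression, near the shares of all genes (22.6% and 17.6%, and 26.6% and 22.5%). Hspa4l (1.43 and 1.80, SE 0.17 and 0.17) and the small heat shock gene Hspb1 (1.44 and 1.72, SE 0.29 and 0.29) rose in both, and Hsph1 fell in both (-0.38 and -0.57, SE 0.10 and 0.10). Of 10 genes of the mitochondrial unfolded protein response, 1 fell and 0 rose in each comparison; this was Hspd1, the mitochondrial chaperonin (-0.26 and -0.40, SE 0.09 and 0.09).

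Between compression and control, 0 genes of these 8 lists passed edgeR's test with all 12 libraries, where 0 of the 15246 genes tested did. Without control 4 and compression 1 together, 1 gene of ER folding and translocation was higher and 1 aminoacyl tRNA synthetase lower. In that fit 1.8% of all genes were higher and 1.12% lower. All 18 of the other amino acid and one-carbon genes had negative differences, from -0.99 to -0.01, where 49% of all genes did. Without control 4 it was 16 of 18. Without control 4 and compression 1 together it was 13 of 18, with a median of -0.03. With all 12 libraries, Iars had the smallest p of any gene in the lists (log2 fold change -0.27, SE 0.07, adjusted p = 0.264). Among positive differences the autophagy gene Map1lc3b had the smallest p there (0.21, SE 0.05, adjusted p = 0.293).

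The RNA counts were also split by the exact ERSE match. Of the 9 genes of the list with a match, 8 were higher in controls than at Day 0 and 5 under compression; of the 9 other unfolded protein response genes with a promoter entry, it was 7 and 6. Over all genes tested, 22.6% were higher and 17.6% lower in controls, and 26.6% and 22.5% under compression. Syvn1 was the gene with a match that passed in neither. Among the 28 further genes of the genome table with a match, 10 had enough counts to be tested. Of these, 2 were higher in controls (Acacb and Alg12, a mannosyltransferase of ER glycan assembly) and 1 lower (Pan2). Under compression the same 2 were higher and 2 were lower (Pan2 and Zfp57). These counts describe few genes, and binding to the elements was not measured.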

How the data were processed

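Per the labels' protocols, RNA came from RNeasy Micro columns and the KAPA mRNA HyperPrep kit gave the libraries. The authors deposited raw counts per gene symbol for 12 libraries; reads were trimmed with fastp and aligned with STAR to mm10, per the submitters' processing notes. For versions, the counting tool, its annotation and its strand setting, nothing is given in the sources used here. No rows without a gene name and 0 columns of no sample were found.

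The tests used edgeR 4.0.16 under R 4.3.3: filterByExpr (min.count 10, min.total.count 15), TMM scaling and 1 robust quasi-likelihood fit of group over all 12 libraries, with Benjamini-Hochberg adjustment over 15246 genes and a threshold of 0.05. CPM use TMM-scaled totals, and RPKM the exon lengths of GENCODE M21 (GRCm38). Set levels are means of log2 CPM (prior count 2). Standard errors and 95% intervals come from the fit. Totals of 13979871 to 33249761 counts set the precision. Tests were run on simulated data: for control against Day 0, 38% of genes raised by 0.5 on the log2 scale and 92% of those raised by 1 were called (50 genes each among 15152 tested), and 62% of those lowered by 0.5. For compression against Day 0, 60% raised and 50% lowered by 0.5 were called (15132 tested), and for compression against control 70% and 72% (15139 tested). The changed genes were drawn at random from those with a mean over 1 CPM, and each gene kept the same spread in every group. Every comparison was simulated from the same gene means, so the shares do not rank the comparisons. Far fewer genes were changed than were called between Day 0 and Day 2 in the real data, which alters the adjusted threshold. The 38 genes spread more widely among controls than all genes did (median ratio 1.65 against 1.23). These shares therefore do not say how many changes of that size would be found among the 38.

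Groups were taken from the labels. Alternatives were DESeq2 1.42.0, limma 3.58.1 (voom with quality weights), other size factors, no filter on low counts, the replicate number as a block, the compared groups only, summing compression 2 and 3, and leaving out libraries. All 38 genes are named; of each other pathway list, up to 3 genes with the smallest p are named, plus Ern1, Atf6, Eif2ak3 and Eif2ak4, and of the marker lists the defining genes. The members and lists were chosen with earlier results of these data known, so their directions are not independent support. Promoter sequences are from RefSeq (GRCm38.p6).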

Additional observations from a re-analysis of the deposited data

Results flagged for a closer look

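Among 114 combinations of gene and group, 6 held a library far from the other 3 relative to the range of the group. Chance gives about 1 in 20, and this count is near that share. Asns was at 34.99 CPM in compression 1 and at 46.3 to 46.65 in the other compression libraries. Sel1l was at 280.7 CPM in compression 1 and at 263.4 to 266.3 in the others. Derl3 was at 1.943 CPM in compression 4 and at 1.014 to 1.119 in the others, and Dnajb9 at 24.45 CPM in compression 4 and at 27.31 to 27.63 in the others. At Day 0, Atf4 was at 150.4 CPM in replicate 3 against 163.2 to 165.3, and Syvn1 at 50.66 CPM in replicate 1 against 57.79 to 58.14.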

How the results depend on the processing

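Of the 25 members called higher in controls than at Day 0, 20 passed in every alternative run, and of the 17 called higher under compression 11 did. Calls of members in control against Day 0 numbered 20 to 27 higher and 0 to 1 lower when 1 library at a time was left out, and in compression against Day 0 12 to 22 higher and 1 to 2 lower; DESeq2 and the fit of the compared groups only gave 2 lower in the latter. For compression against control, limma-voom called 3 lower, the fit without control 4 and compression 1 together 1 higher, and leaving out 1 library at a time 0 in both directions. Over all genes this comparison gave 0 calls in edgeR, 51 higher and 18 lower in DESeq2 and 1125 higher and 788 lower in limma-voom. The labels give no litter or day shared by same-numbered libraries, and whether these were paired is not known. Correlations of their deviations from the group means ran from -0.1809 to 0.1659. With the replicate number as a block, 24, 18 and 0 members were higher and 1, 1 and 0 lower in the 3 comparisons. The counts of calls by unadjusted p, sign and separation for compression against control were chosen after seeing the data. The cause of these changes was not tested. Whether depth limits the low transcripts was not tested.

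For control against Day 0, with limma-voom, the log2 values that turned sign were Shmt2 0.064. For control against Day 0, with library totals only, the log2 values that turned sign were Shmt2 0.0010. For control against Day 0, without control 4 and compression 1 together, the log2 values that turned sign were Syvn1 -0.10, Edem1 -0.086, Phgdh -0.017, Mthfd2 -0.089, Slc7a5 -0.063 and Ppp1r15a -0.26. For compression against Day 0, with DESeq2, the log2 values that turned sign were Slc7a1 -0.0070. For compression against Day 0, with limma-voom, the log2 values that turned sign were Phgdh 0.030. For compression against Day 0, with RLE size factors, the log2 values that turned sign were Slc7a1 -0.0071. For compression against Day 0, without control 4 and compression 1 together, the log2 values that turned sign were Phgdh 0.073, Shmt2 0.054 and Ppp1r15a 0.061. For compression against control, with limma-voom, the log2 values that turned sign were Shmt2 -0.078. For compression against control, with library totals only, the log2 values that turned sign were Shmt2 -0.0025. For compression against control, with compression 2 and 3 summed, the log2 values that turned sign were Nupr1 -0.038. For compression against control, without control 4 and compression 1 together, the log2 values that turned sign were Sdf2l1 0.055, Manf 0.0028, Herpud1 0.15, Xbp1 0.14, Syvn1 0.013, Atf4 0.021, Atf5 0.0077, Trib3 0.15, Chac1 0.43, Phgdh 0.090, Slc3a2 0.20, Ppp1r15a 0.32 and Pck2 0.020.

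For control against Day 0, leaving out 1 library at a time, sign changes gave log2 ranges of Syvn1 -0.10 to 0.13, Edem1 -0.086 to 0.47, Phgdh -0.037 to 0.19, Shmt2 -0.10 to 0.052, Mthfd2 -0.089 to 0.15, Slc7a5 -0.063 to 0.34 and Ppp1r15a -0.26 to 0.33. For compression against Day 0, leaving out 1 library at a time, sign changes gave log2 ranges of Phgdh -0.12 to 0.059, Shmt2 -0.14 to 0.040, Slc7a1 -0.063 to 0.036 and Ppp1r15a -0.10 to 0.047. For compression against control, leaving out 1 library at a time, sign changes gave log2 ranges of Pdia6 -0.20 to 0.0028, Sdf2l1 -0.50 to 0.0090, Herpud1 -0.45 to 0.083, Xbp1 -0.13 to 0.081, Edem1 -0.18 to 0.37, Trib3 -0.98 to 0.00074, Chac1 -0.66 to 0.18, Phgdh -0.21 to 0.014, Shmt2 -0.10 to 0.086, Slc3a2 -0.26 to 0.13, Nupr1 -0.15 to 0.57, Ppp1r15a -0.38 to 0.21 and Stc2 -0.022 to 0.29.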
